A study of Mus with 96 samples.

Results

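Interferon-stimulated genes are the genes that a cell switches on when an interferon binds its receptor. The 40 such genes described here were listed by name and kept where their counts summed to at least 100 over the 96 liver libraries. All 40 met this minimum, out of 15548 genes that did so and 55487 in the count table. Their counts summed over all libraries ran from 1660 for Mx1 to 326014 for Ly6e.

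The livers came from young adult mice of both sexes on a C57BL/6J background. Hep-Bmal1KO mice carry floxed Bmal1 (Arntl) alleles and a Cre transgene under the albumin promoter, which deletes this clock gene in hepatocytes and leaves it in the other cells of the liver. Their Hep-Bmal1WT littermates carry the same floxed alleles without Cre, so both genotypes are Bmal1 flx/flx. Each genotype was fed normal chow (NC) or, for a short course, a choline-deficient high-fat diet (cdHFD) that induces metabolic dysfunction-associated steatohepatitis. Livers were taken at 6 zeitgeber times, ZT2, ZT6, ZT10, ZT14, ZT18 and ZT22, where ZT0 is lights on. With 4 mice per genotype, diet and time there were 24 mice in each of the 4 groups, and 49 males and 47 females in all. All 49 male libraries had more Y-linked than Xist counts and 46 of 47 female libraries the reverse, and the remaining female library had 6 Y-linked and 4 Xist counts.

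Type I and type III interferons signal through JAK kinases to a complex that holds STAT2 and IRF9 and binds a shared promoter element. Interferon gamma uses a receptor of its own and drives guanylate-binding proteins, immunity-related GTPases, IRF1 and antigen-processing genes. The products sense viral RNA and DNA, block viral replication or damp the signal itself. In the liver both hepatocytes and resident macrophages respond to interferon, and a low, tonic level of these transcripts is usual without infection. In whole liver, fewer cells of a type and less RNA per cell cannot be told apart.

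Libraries were made by 3′ BRB-seq, in which reads come from the end of each transcript, and held between 1861740 and 9718615 counted reads (median 6412078.5). Levels are given as CPM, the reads of a gene relative to its library's total after correction by the trimmed mean of M values, and are compared between groups for 1 gene at a time. As a check of the genotype labels, the mean Bmal1 level in Hep-Bmal1WT livers on NC ran from 0.748 CPM at ZT10 to 20.2 CPM at ZT2, against 5.74 to 9.83 CPM in Hep-Bmal1KO livers. The 3′ reads may lie outside the deleted exon, so this check is limited. The levels of 10 clock genes and 20 other genotype-dependent genes, with the interferon-stimulated genes left out, went against the genotype label in 7 libraries. These are 2 of 24 in Hep-Bmal1WT NC, 2 in Hep-Bmal1KO NC, 2 in Hep-Bmal1WT cdHFD and 1 in Hep-Bmal1KO cdHFD. Genotype results are therefore given with and without these 7, called the discordant libraries.

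The interferons themselves were barely counted. Ifng, the gene of interferon gamma, had 33 counts in all, with at least 1 count in 4 of 24 libraries in each NC group and 5 of 24 in each cdHFD group. Ifnb1 had 1 count, and Ifna2, Ifna4, Ifnl2 and Ifnl3 had 0, which allows up to 3 counts each over the 96 libraries. A difference in ligand expression was not detectable at this depth.

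All 40 genes matched the RefSeq annotation of GRCm38.p6, and they lie on 16 chromosomes, several in families side by side. On chromosome 5, Oasl1 spans chr5:114923143-114937911 next to Oasl2, and Oas1a spans chr5:120896256-120907544 near Oas2 and Oas3. Ifit1, Ifit2 and Ifit3 lie together on chromosome 19, and Gbp2, Gbp3 and Gbp7 on chromosome 3. Another annotated gene overlaps 12 of the 40, among them Parp9 and Dtx3l, which overlap each other. Reads of such pairs, and of near-identical copies such as Ifit3 and Ifit3b or Oas1a and Oas1g, may be divided between copies by the counting, so their levels are less certain.

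The mean of the 40 genes in each library gives a first view. Each gene was put on a variance-stabilized, log2-like scale and centred on its mean over the 96 libraries. This member mean averaged -0.27 ± 0.25 (SD, n = 24) in Hep-Bmal1WT NC and -0.15 ± 0.19 in Hep-Bmal1KO NC. On cdHFD it averaged 0.30 ± 0.20 in Hep-Bmal1WT and 0.11 ± 0.18 in Hep-Bmal1KO. The 12 Hep-Bmal1WT males on NC formed the lowest set, between -0.61 and -0.38, and the highest single library was a Hep-Bmal1WT cdHFD male at ZT10 with 0.83. The 4 groups overlapped.

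**Figure D1:**
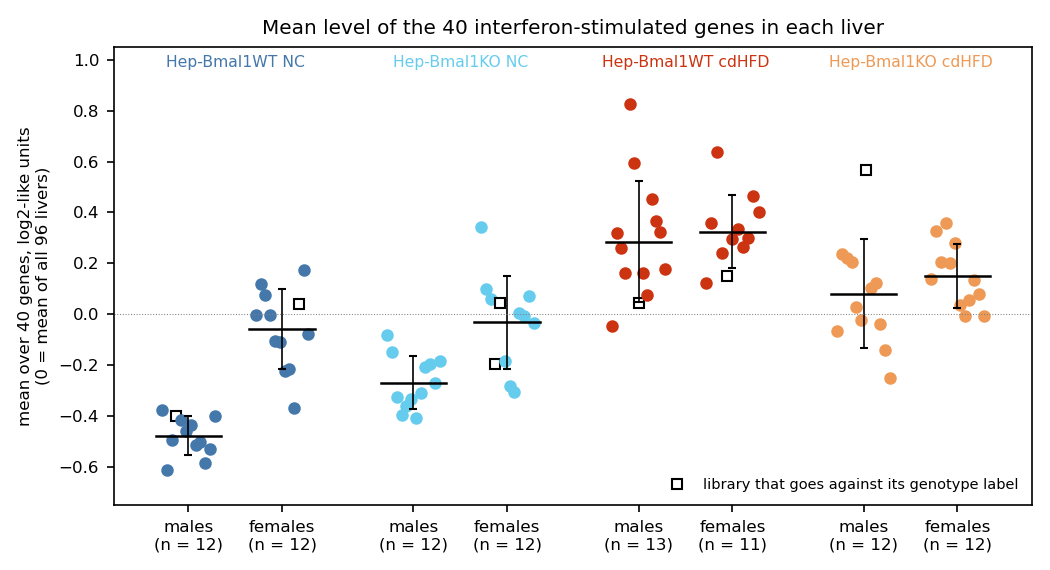
The mean of the 40 genes in each liver (vertical axis, variance-stabilized values centred on each gene's mean) by group and sex, 1 point per mouse, with open squares for the discordant libraries. Hep-Bmal1WT NC males lie lowest, from -0.61 to -0.38, and Hep-Bmal1WT cdHFD livers highest, from -0.05 to 0.83.

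The first comparison asks what cdHFD did to these genes in control livers. In Hep-Bmal1WT livers 29 of 40 genes passed the test, 26 higher and 3 lower on cdHFD, with a median log2 difference of 0.62. Across all genes tested, 55.7% passed, 28.7% higher and 27% lower, with a median of 0.01. The test was edgeR's quasi-likelihood F test with time as a factor, with Benjamini-Hochberg adjustment over 15548 genes and a threshold of 0.05, and it is the test behind every adjusted p given for a difference in level.

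The antiviral effectors made up most of the rise, with 15 of 18 higher, 1 lower and a median log2 difference of 1.10. Oas1a, an oligoadenylate synthetase that activates RNase L on double-stranded RNA, had 0.594, 2.55 and 5.53 CPM (lowest, median, highest) in Hep-Bmal1WT NC and 7.15, 14.9 and 22.7 CPM on cdHFD. All 24 cdHFD livers lay above all 24 NC livers, and the log2 difference was 2.26 ± 0.14 (SE, adjusted p = 2.18e-19). Its neighbour Oas3 also showed no overlap between diets, with a log2 difference of 2.16 ± 0.17 (adjusted p = 6.28e-16). Oasl2 rose by 1.77 ± 0.14 and Mx1, a dynamin-like GTPase that inhibits viral transcription in the nucleus and is defective in C57BL/6 mice, by 1.68 ± 0.20.

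Rsad2 encodes viperin, which makes a chain-terminating nucleotide against viral polymerases. It had 1.89, 4.72 and 14.0 CPM on NC and 7.43, 15.0 and 22.1 CPM on cdHFD, and rose by 1.23 ± 0.16 (adjusted p = 2.17e-09). In 14 of 24 cdHFD livers its level was above the highest NC level. Ifit3 rose by 1.11 ± 0.14, Xaf1 by 1.09 ± 0.14 and Ly6e, a lipid-anchored surface protein, by 1.07 ± 0.14. Smaller rises were those of Oasl1 (0.82 ± 0.16), Isg15, the ubiquitin-like modifier (0.78 ± 0.14), and Ifit1, which binds foreign RNA ends (0.51 ± 0.17, adjusted p = 0.0105).

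Among the regulators, Usp18, the protease that removes ISG15 and restrains the type I receptor, moved most. It had 7.01, 11.2 and 23.9 CPM on NC and 20.5, 34.6 and 62.6 CPM on cdHFD, with 21 of 24 cdHFD livers above the highest NC liver. Its log2 difference was 1.49 ± 0.12 (adjusted p = 3.6e-15). Irf7, the factor that amplifies type I interferon transcription, rose by 0.86 ± 0.09 (adjusted p = 2.62e-12), from a median of 30.9 to 52.5 CPM. Stat2 fell by 0.26 ± 0.07 on the log2 scale, and Irf1, the factor most tied to interferon gamma, differed by 0.22 ± 0.11 with adjusted p = 0.0854.

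The RNA and DNA sensors Ddx58 (RIG-I), Dhx58 (LGP2) and Zbp1 rose by 0.60 ± 0.08, 0.74 ± 0.16 and 0.57 ± 0.13. Ifih1 (MDA5) differed by 0.12 ± 0.07 with adjusted p = 0.148. Of the 4 genes of the ADP-ribosylation set, Parp12, Parp14 and Dtx3l rose and Parp9, the partner of Dtx3l, did not pass the test.

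The GTPases and the antigen-processing gene split. Gbp2 had 1.5, 4.61 and 16.7 CPM on NC and 8.5, 19.8 and 40.4 CPM on cdHFD, a log2 difference of 1.93 ± 0.16 (adjusted p = 1.21e-14). Iigp1, an immunity-related GTPase that attacks the vacuoles of intracellular parasites, went the other way, from 140, 220 and 346 CPM to 75.5, 122 and 164 CPM. It fell by 0.89 ± 0.09 (adjusted p = 7.2e-13), and 16 of 24 cdHFD livers lay below the lowest NC liver. Tap1, a subunit of the peptide transporter of antigen presentation, rose by 0.56 ± 0.10, and Igtp differed by -0.30 ± 0.15 with adjusted p = 0.0988. Of the 7 genes of this set 3 rose, 1 fell and the median was -0.01.

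In Hep-Bmal1KO livers, which are other mice on both diets, 31 of 40 genes passed the same test, 20 higher and 11 lower, and the median log2 difference was 0.20. Of all genes, 61.9% passed, 32.4% higher and 29.6% lower. Large rises were again found among the effectors. Oas1a differed by 1.87 ± 0.12, Oas3 by 2.21 ± 0.21, Oasl2 by 1.53 ± 0.11 and Mx1 by 1.74 ± 0.20. Gbp2, of the GTPase set, differed by 1.68 ± 0.13. All 24 cdHFD livers lay above all NC livers for Gbp2 in this genotype.

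The same 20 genes were higher on cdHFD in both genotypes, and Iigp1, Ifi27 and Stat2 were lower in both. A further 6 genes passed as higher in Hep-Bmal1WT and did not pass in Hep-Bmal1KO: Ddx58, Dhx58, Dtx3l, Ifit1, Isg15 and Tap1. Another 8 passed as lower in Hep-Bmal1KO and did not pass in Hep-Bmal1WT: Bst2, Ifi35, Ifih1, Igtp, Irgm1, Mx2, Parp9 and Trim25. Gbp7, Irf1 and Irf9 passed in neither. The share of all genes in each of these joint classes was not counted. The genes lower in Hep-Bmal1KO, 11 of 40, were near the 29.6% of all genes. The number of lower genes in Hep-Bmal1KO fell from 11 to 8 with DESeq2, with its size factors or with no filter, and to 7 without replicate 3, without ZT22 or in males alone. Ifi35 and Trim25 did not pass with DESeq2 (adjusted p = 0.0891 and 0.142), and Mx2 did not without replicate 3 (adjusted p = 0.166). Passing in 1 genotype and not the other is no test of a difference, which is given further on.

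Bst2, the tethering protein that holds virions at the cell surface, was among the 8 genes that passed as lower in Hep-Bmal1KO alone. Its levels were 263, 411 and 614 CPM in Hep-Bmal1WT NC and 342, 428 and 560 CPM in Hep-Bmal1WT cdHFD, a log2 difference of 0.08 ± 0.05 (adjusted p = 0.165). In Hep-Bmal1KO they were 337, 479 and 581 CPM on NC and 248, 344 and 661 CPM on cdHFD, a fall by 0.41 ± 0.07 (adjusted p = 5.62e-07). Iigp1 fell by 1.13 ± 0.07 in this genotype, Igtp by 0.68 ± 0.16, Irgm1 by 0.65 ± 0.13, Mx2 by 0.64 ± 0.21 and Ifi27 by 0.58 ± 0.09. The 8 genes were not alike in Hep-Bmal1WT, where the cdHFD to NC ratio of means ran from 0.81 for Igtp to 1.08 for Ifih1. Of the 8, Bst2 and Parp9 passed the test of a difference between genotypes given further on.

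**Figure D2:**
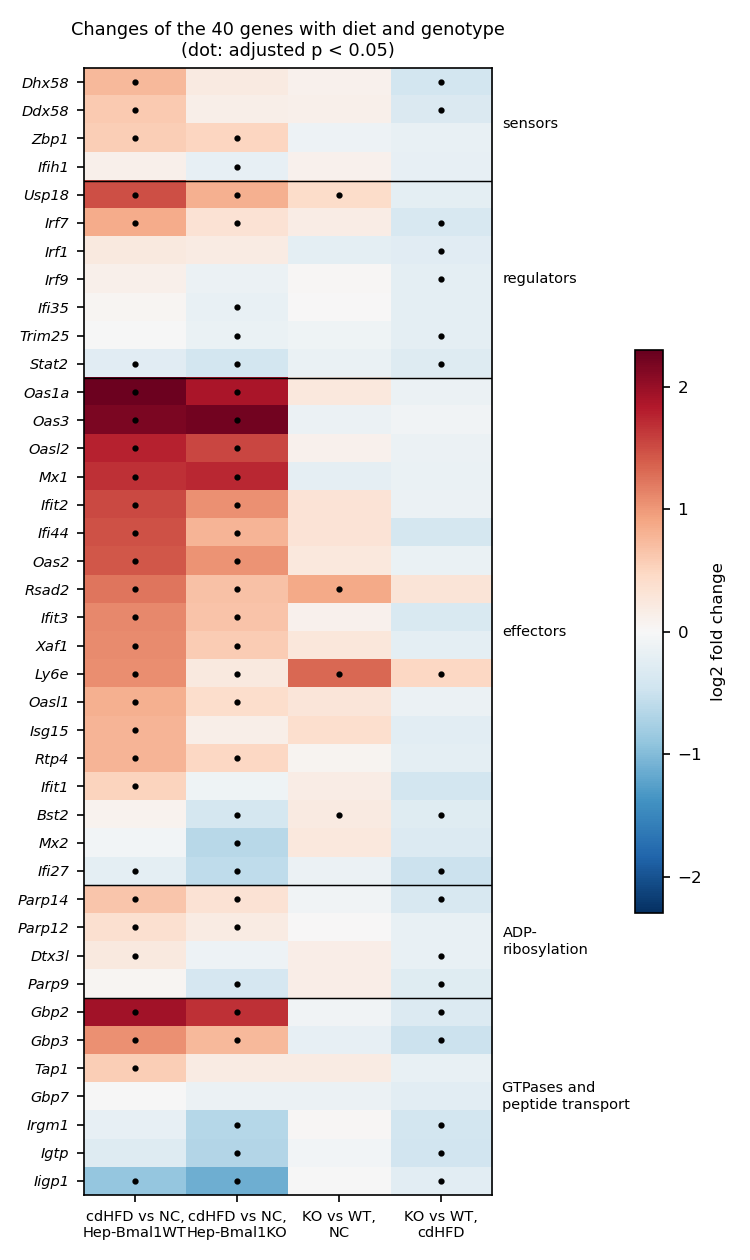
Log2 differences of the 40 genes (rows, by role) in 4 comparisons (columns), with a dot where adjusted p is under 0.05. The diet columns hold most of the large rises, led by Oas1a at 2.26, and the genotype column on cdHFD is lower for 38 of 40 genes.

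Other cell types moved with the diet too. All 12 macrophage markers were higher on cdHFD in both genotypes. Their summed level ran from 286 to 767 CPM in Hep-Bmal1WT NC, 257 to 834 in Hep-Bmal1KO NC, 1323 to 3288 in Hep-Bmal1WT cdHFD and 1785 to 3592 in Hep-Bmal1KO cdHFD, with no marker at 0 throughout a group. Of 10 T and NK cell markers, 8 rose in Hep-Bmal1WT and 7 in Hep-Bmal1KO, from a summed median of 10.2 to 22.1 CPM and from 8.44 to 21.3 CPM. Of 6 dendritic cell markers 5 rose in Hep-Bmal1WT and 6 in Hep-Bmal1KO, from a summed median of 2.18 to 14.6 CPM and from 1.66 to 18.1 CPM. All 6 stellate cell markers rose in both genotypes, from summed medians of 260.9 and 262.5 CPM to 636.8 and 784.1 CPM. All 5 neutrophil markers tested rose in both genotypes and all 9 hepatocyte markers tested fell. Their part in the rise of the interferon-stimulated genes was not tested. Each diet and time used its own run of mouse numbers, so diet cannot be told apart from that run.

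The pathway upstream of these genes moved unevenly. Of 27 tested genes of interferon receptors, signalling and sensing, 18 were higher and 4 lower on cdHFD in Hep-Bmal1WT, and 17 and 4 in Hep-Bmal1KO, beside the 28.7% higher and 27% lower of all genes in Hep-Bmal1WT and 32.4% and 29.6% in Hep-Bmal1KO. Ifngr1, a chain of the interferon gamma receptor, rose by 1.17 ± 0.08 and 1.35 ± 0.08 (adjusted p = 6.84e-18 and 4.16e-21), from medians of 21.6 and 21.3 CPM to 49.5 and 55 CPM. Il10rb, shared by the type III receptor, rose by 1.46 ± 0.08 and 1.83 ± 0.08. Of the type I receptor chains, Ifnar1 differed by 0.14 ± 0.09 in Hep-Bmal1WT (adjusted p = 0.178) and rose by 0.41 ± 0.08 in Hep-Bmal1KO, while Ifnar2 fell by 0.25 ± 0.06 and 0.56 ± 0.04.

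The next comparison asks how the genotypes differed on each diet. The NC mice enter both the diet and the genotype comparisons, as do the cdHFD mice, so these share samples and are given side by side only. On NC, 4 of 40 genes passed, all higher in Hep-Bmal1KO, and the median log2 difference was 0.10. Across all genes 12.6% passed, 7% higher and 5.61% lower. Counted at an unadjusted p under 0.05, 9 of the 40 passed.

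Ly6e stood out. It had 89.6, 228 and 602 CPM in Hep-Bmal1WT NC and 149, 604 and 800 CPM in Hep-Bmal1KO NC, and was higher in Hep-Bmal1KO by 1.33 ± 0.14 (adjusted p = 6.16e-09). Over all times 12 of 24 Hep-Bmal1KO livers lay above the highest Hep-Bmal1WT liver. At ZT18 the discordant Hep-Bmal1WT library had 602 CPM against 130 to 224 CPM in the other 3, and at ZT6 the discordant Hep-Bmal1KO library had 228 CPM against 583 to 704 CPM. At ZT10 the discordant Hep-Bmal1KO library had 149 CPM and its 3 group mates 332 to 425 CPM. Without the 7 discordant libraries the difference was 1.56 ± 0.10 (adjusted p = 1.28e-15), and within each ZT all Hep-Bmal1KO livers lay above all Hep-Bmal1WT livers.

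Rsad2 was the second. Its Hep-Bmal1KO NC levels were 3.8, 11.2 and 23.2 CPM, with 7 of 24 above the highest Hep-Bmal1WT NC level of 14.0 CPM, and its log2 difference was 0.87 ± 0.16 (adjusted p = 0.000134). Usp18 was higher by 0.43 ± 0.11 (adjusted p = 0.00828) and Bst2 by 0.20 ± 0.05 (adjusted p = 0.00396), both with overlapping groups. Bst2 did not pass without ZT10 (adjusted p = 0.0560), nor Usp18 without ZT22 (adjusted p = 0.0751). Isg15 differed by 0.39 ± 0.14 with adjusted p = 0.0607, and passed without the discordant libraries (0.46 ± 0.15, adjusted p = 0.0228), as did Parp9. Over all genes the fit without these libraries called 2656 in place of 1960.

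None of the genes most tied to interferon gamma passed on NC. Irf1, Igtp, Gbp2 and Gbp3 differed by -0.23 ± 0.13, -0.06 ± 0.19, -0.08 ± 0.19 and -0.20 ± 0.24, with adjusted p from 0.308 to 0.895. Oas1a, Ifit1, Ifit3 and Irf7 were 0.24 ± 0.17, 0.17 ± 0.17, 0.10 ± 0.13 and 0.16 ± 0.09, none past the threshold. No macrophage or T and NK cell marker passed on NC by edgeR, and none had an unadjusted p under 0.05. Of 5 cholangiocyte markers 2 were higher in Hep-Bmal1KO, with a summed median of 51.1 CPM in Hep-Bmal1WT and 89.9 CPM in Hep-Bmal1KO. Most counts of these 5 over all libraries were of Spp1, 75025 against 11058 for Sox9, the next highest. Of 5 B cell markers 1 was higher, with summed medians of 16.1 and 23.5 CPM. Of 9 hepatocyte markers 2 were higher and 2 lower, with summed medians of 161441 and 121280 CPM. Their part in the genotype results was not tested. Of the pathway genes 4 of 27 passed, beside 12.6% of all genes, with Ifnar2 higher by 0.21 ± 0.05 and Irf2, Il10rb and Irf3 lower.

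In males alone 8 genes passed as higher in Hep-Bmal1KO on NC, with Ly6e at 1.78 ± 0.14, Rsad2 at 1.19 ± 0.22, Isg15 at 0.70 ± 0.15 and Usp18 at 0.65 ± 0.12. In females alone only Ly6e passed, at 1.01 ± 0.16. The share of all genes that passed in these single-sex fits is not given here. The difference between sexes was itself tested and passed for 0 of 40 genes by edgeR (9 at unadjusted p under 0.05) and for 0 by DESeq2, against 0.341% of all genes.

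On cdHFD most genes were lower in Hep-Bmal1KO. Of 40 genes 18 passed, 17 lower and 1 higher in Hep-Bmal1KO, with a median log2 difference of -0.24, and 38 of 40 were lower. Across all genes 9.61% passed, 4.62% higher and 4.99% lower, with a median of 0.01. The single gene that rose was Ly6e, with 222, 456 and 793 CPM in Hep-Bmal1WT and 257, 713 and 935 CPM in Hep-Bmal1KO (0.48 ± 0.08, adjusted p = 5.92e-05). Rsad2 differed by 0.30 ± 0.12 with adjusted p = 0.0992.

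The decreases were small and spread over the roles. All 7 regulators were lower, and 5 of them passed. Irf7 had 41.2, 52.5 and 85.7 CPM in Hep-Bmal1WT cdHFD and 23.8, 42.7 and 80.1 CPM in Hep-Bmal1KO cdHFD, and fell by 0.36 ± 0.08 (adjusted p = 0.0026), with 10 of 24 Hep-Bmal1KO livers below the lowest Hep-Bmal1WT liver. Stat2 fell by 0.30 ± 0.07, Irf1 by 0.25 ± 0.06, Irf9 by 0.23 ± 0.08 and Trim25, the ubiquitin ligase of the RIG-I pathway, by 0.23 ± 0.05. Of the sensors, Ddx58 fell by 0.33 ± 0.07 (adjusted p = 0.000524) and Dhx58 by 0.43 ± 0.11.

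Among the effectors Ifi27, a mitochondrial membrane protein, fell by 0.49 ± 0.09 (adjusted p = 0.000117) and Bst2 by 0.29 ± 0.06, where 12 of 24 Hep-Bmal1KO livers lay below the lowest Hep-Bmal1WT liver. Parp14 fell by 0.38 ± 0.08, with Parp9 and Dtx3l also lower. Of the 7 GTPase and antigen genes 5 passed. Gbp3 fell by 0.50 ± 0.11 (adjusted p = 0.00177), Igtp by 0.43 ± 0.12, Irgm1 by 0.42 ± 0.11, Gbp2 by 0.32 ± 0.11 and Iigp1 by 0.24 ± 0.08. Several genes with a large diet difference did not pass, with Oas1a at -0.14 ± 0.11, Oas3 at -0.09 ± 0.13, Usp18 at -0.23 ± 0.10 and Isg15 at -0.25 ± 0.12. Ifit1 (-0.43 ± 0.15) and Ifit3 (-0.34 ± 0.12) had adjusted p of 0.056 and 0.0688, and Oasl1 and Tap1 were -0.13 ± 0.11 and -0.17 ± 0.08.

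Without the 7 discordant libraries 30 genes passed, 29 of them lower, all 18 included, and the median was -0.30. Over all genes that fit called 2024 in place of 1494. Without ZT22 the count was 9, and without replicate 2 of each group it was 8. In males alone and in females alone 8 genes passed.

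Cell type markers differed between genotypes on cdHFD too. Of 12 macrophage markers, Ccr2 (0.56 ± 0.10) and Lyz2 (0.35 ± 0.08) were higher in Hep-Bmal1KO and the Kupffer cell gene Clec4f lower (-0.35 ± 0.08). Of 5 cholangiocyte markers 3 were higher. The 5 summed ran from 52.1 to 215 CPM (median 103.8) in Hep-Bmal1WT and from 69.7 to 750.05 CPM (median 224.7) in Hep-Bmal1KO. Over all libraries most of their counts were of Spp1, so this sum mainly follows that gene. Of 5 neutrophil markers S100a8 and S100a9 were higher, as were 4 of 6 stellate cell markers and 1 of 6 dendritic cell markers. Of 9 hepatocyte markers 1 was higher and 2 lower, with a summed median of 76521 CPM in Hep-Bmal1WT and 65599 CPM in Hep-Bmal1KO. Of B cell markers 0 of 5 passed (0 at unadjusted p under 0.05), and 0 of 10 T and NK cell markers passed by edgeR (1 at unadjusted p under 0.05). Their part in the lower interferon-stimulated genes was not tested. In the pathway Mavs and Irf2 were lower in Hep-Bmal1KO and Cgas higher. Ifnar1, Ifnar2 and Ifngr1 differed by 0.04 ± 0.07, -0.10 ± 0.05 and 0.18 ± 0.06, none past the threshold.

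**Figure D3:**
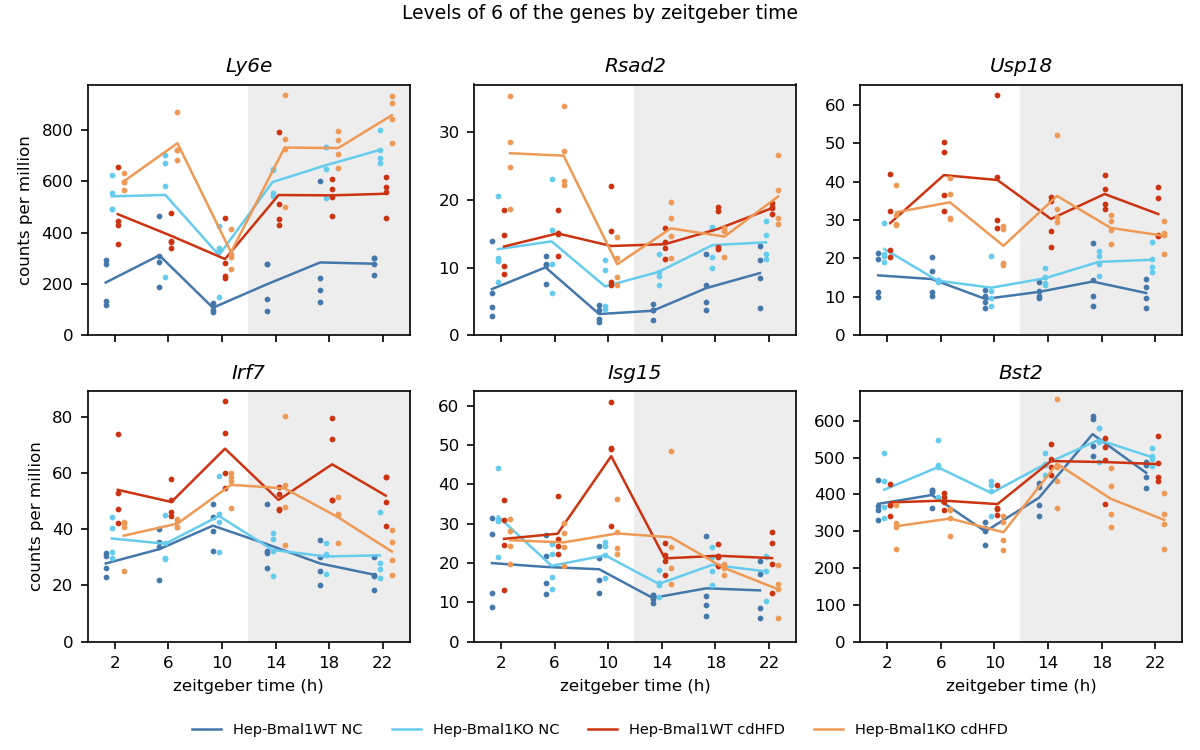
CPM of Ly6e, Rsad2, Usp18, Irf7, Isg15 and Bst2 against zeitgeber time in the 4 groups, 1 point per mouse and a line through the means of 4 mice, with the dark phase shaded. Ly6e is lowest at ZT10 in every group, and its NC mean at that time is 106 CPM in Hep-Bmal1WT and 312 CPM in Hep-Bmal1KO.

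Whether the genotype difference itself differed between diets was tested over all 96 libraries. The interaction passed for 8 of 40 genes, all negative, meaning that Hep-Bmal1KO lay lower relative to Hep-Bmal1WT on cdHFD than on NC. Of all genes 3.04% passed, 1.04% positive and 2% negative. The median over the 40 genes was -0.36, 38 were negative, and 23 had an unadjusted p under 0.05.

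Bst2 (-0.48 ± 0.08, adjusted p = 2.37e-05) was higher in Hep-Bmal1KO on NC and lower on cdHFD. Ly6e (-0.84 ± 0.17, adjusted p = 0.000779) and Usp18 (-0.66 ± 0.15, adjusted p = 0.00573) were higher in Hep-Bmal1KO on NC, and on cdHFD their differences were 0.48 ± 0.08 and -0.23 ± 0.10. Irf7 (-0.52 ± 0.12), Isg15 (-0.64 ± 0.19), Ddx58 (-0.46 ± 0.12) and the pair Dtx3l (-0.34 ± 0.08) and Parp9 (-0.42 ± 0.11) also passed. Isg15 had medians of 12.4 CPM in Hep-Bmal1WT NC, 21.6 in Hep-Bmal1KO NC, 24.6 in Hep-Bmal1WT cdHFD and 21.0 in Hep-Bmal1KO cdHFD. Its interaction had adjusted p = 0.0473, the highest of the 8, and with all libraries its genotype difference passed on neither diet. Of the 8 genes, 1 passed in every alternative run. Without the discordant libraries 16 genes passed, these 8 among them, while over all genes 919 passed in place of 473, and in females alone only Bst2 did.

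Of the receptor genes, Ifnar2 had an interaction of -0.31 ± 0.07 (adjusted p = 0.00707) and Il10rb of 0.38 ± 0.11 (adjusted p = 0.0411). No macrophage, T and NK cell, neutrophil or stellate cell marker passed this test by edgeR, with 2 of 12, 0 of 10, 1 of 5 and 3 of 6 at an unadjusted p under 0.05.

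Sex was a further source of variation. Over both diets 18 of 40 genes passed, 17 higher and 1 lower in females (17.2% of all genes, 8.99% higher and 8.24% lower). The smallest p-values were those of Igtp, Gbp3, Gbp7, Gbp2, Irf1 and Iigp1, with log2 differences of 0.68 ± 0.09, 0.68 ± 0.11, 0.54 ± 0.08, 0.50 ± 0.09, 0.42 ± 0.06 and 0.24 ± 0.05. Ifi27 was lower in females by 0.21 ± 0.06. After these values had been seen, the diets were fitted apart.

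On NC 22 of 40 genes were higher in females and none lower, with a median log2 difference of 0.33, against 9.98% of all genes higher and 8.64% lower. Igtp, an immunity-related GTPase of the interferon gamma response, had 11.9, 23.4 and 56 CPM in 24 males and 36, 55.1 and 82.3 CPM in 24 females. The sexes overlapped little, and the difference was 1.14 ± 0.09 (adjusted p = 1.98e-14). Gbp3 had 1.45, 3.44 and 6.29 CPM in males and 3.4, 8.70 and 16.8 CPM in females, a difference of 1.42 ± 0.14 (adjusted p = 4.27e-11). Irf1 had 10.9, 17.3 and 30.4 CPM against 19.4, 29.1 and 43.7 CPM, a difference of 0.68 ± 0.09 (adjusted p = 1.62e-07).

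The GTPase and antigen set held 6 of the 22, and the effectors 8 of 18. Gbp7 was higher in females by 0.94 ± 0.10, Gbp2 by 0.82 ± 0.16, Ifi44 by 0.98 ± 0.15, Ifit1 by 0.81 ± 0.12, Zbp1 by 0.67 ± 0.11, Isg15 by 0.65 ± 0.11 and Iigp1 by 0.33 ± 0.05. Of the 4 genes that passed for genotype on NC, Usp18 was also higher in females, by 0.43 ± 0.09 (adjusted p = 0.000496). The others did not pass, with Rsad2 at 0.01 ± 0.16, Bst2 at 0.01 ± 0.05 and Ly6e at 0.29 ± 0.13.

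On cdHFD 3 genes passed, against 5.76% of all genes (3.42% higher, 2.35% lower), with Ifit2 (0.43 ± 0.12) and Irf1 (0.19 ± 0.06) higher and Ifi27 (-0.27 ± 0.08) lower in females. Without the discordant libraries 6 passed, all higher in females, and Ifi27 did not (adjusted p = 0.0569). Igtp, with all libraries, had 13.1, 24.9 and 55 CPM in 25 males and 18.4, 31.4 and 48.4 CPM in 23 females, which overlapped almost throughout.

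The difference between diets in the sex effect passed for 11 genes, all negative, against 7.91% of all genes (3.68% positive, 4.23% negative). The largest were Gbp3 (-1.26 ± 0.17, adjusted p = 2.55e-08), Ifi44 (-0.93 ± 0.20, adjusted p = 0.000761) and Igtp (-0.92 ± 0.14, adjusted p = 6.27e-07). The female minus male difference was lower on cdHFD than on NC for 39 of 40 genes. The Gbp3 median was 3.44 CPM on NC and 10.04 CPM on cdHFD in males, and 8.70 and 12.2 CPM in females. The Igtp median was 23.4 and 24.9 CPM in males, and 55.1 and 31.4 CPM in females.

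Markers of other cells moved with sex too. On NC 11 of 12 macrophage markers and 5 of 6 endothelial markers were higher in females. So were 3 of 6 stellate cell and 5 of 10 T and NK cell markers, beside 9.98% of all genes. Macrophage log2 differences lay between 0.18 and 0.65. The hepatocyte markers summed to 109056 to 173229 CPM in Hep-Bmal1WT NC males and 135296 to 220314 CPM in females. In Hep-Bmal1KO NC they summed to 100968 to 125359 CPM in males and 104358 to 219810 CPM in females. Both Hep-Bmal1WT minima and the Hep-Bmal1KO female maximum were discordant libraries. On cdHFD 0 of 12 macrophage markers passed by edgeR (2 at unadjusted p under 0.05). In the sex by diet test 10 of 12 macrophage markers passed as negative, beside 4.23% of all genes. Their part in the sex difference of the interferon-stimulated genes was not tested. Of the receptor genes, Ifngr1 was higher in NC females by 0.31 ± 0.07 (adjusted p = 0.000674).

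**Figure D4:**
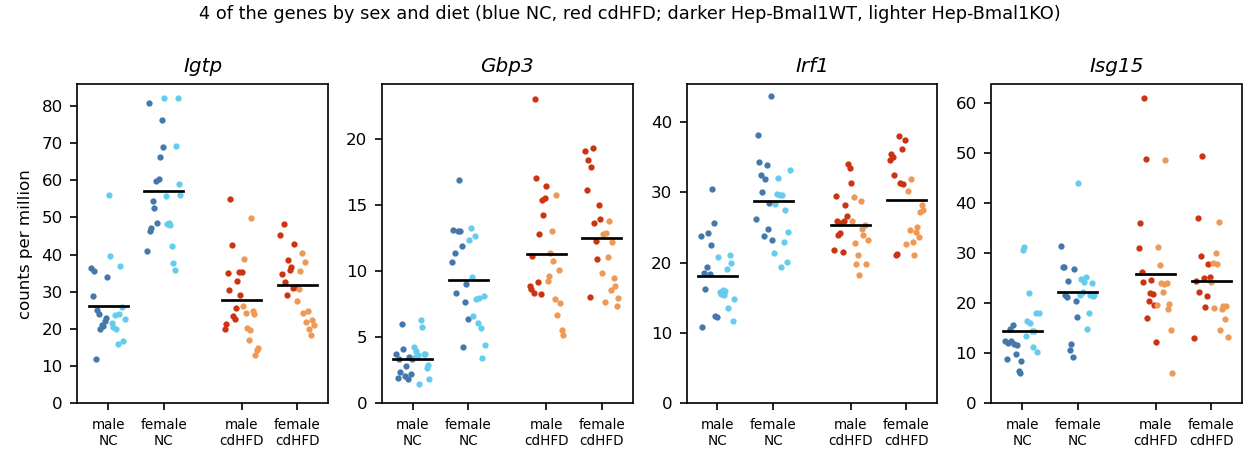
CPM of Igtp, Gbp3, Irf1 and Isg15 in males and females on each diet, 1 point per mouse (blue NC, red cdHFD, darker Hep-Bmal1WT, lighter Hep-Bmal1KO) and a line at the mean. The Igtp mean on NC is 26.1 CPM in males and 57 CPM in females, and on cdHFD 27.8 and 31.8 CPM.

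The genotype difference was then followed through the day. In 1 fit of all 24 groups of 4 mice, genes passed 7 times in all over the 6 times on NC. Ly6e was higher in Hep-Bmal1KO at ZT2 (1.40 ± 0.29), ZT10 (1.55 ± 0.30), ZT14 (1.60 ± 0.30), ZT18 (1.23 ± 0.29) and ZT22 (1.38 ± 0.29), while at ZT6, with 1 discordant library in each genotype, 0 of 40 genes passed by edgeR (2 at unadjusted p under 0.05). At ZT14 Rsad2 was also higher (1.38 ± 0.39, adjusted p = 0.0208) and Trim25 lower (-0.53 ± 0.15, adjusted p = 0.0225). Of all genes between 0.00643% (ZT6) and 4.79% (ZT14) passed. At ZT6, 1652 of all 15548 genes had an unadjusted p under 0.05.

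On cdHFD no gene of the 40 passed at a single time by edgeR, and DESeq2 gave 2 calls over the 6 times. At ZT22 the median log2 difference was -0.53, 38 of 40 genes were lower in Hep-Bmal1KO and 22 had an unadjusted p under 0.05. At ZT10 the median was -0.44 with 19 such genes, at ZT18 -0.33 with 9, at ZT6 -0.15 with 5, at ZT2 -0.05 with 4 and at ZT14 0.07 with 0. Of all 15548 genes, 1405 had an unadjusted p under 0.05 at ZT22, 1331 at ZT10 and 930 at ZT18. At ZT6, ZT2 and ZT14 there were 1208, 1683 and 445. By adjusted p, 0.00643% and 0.0129% of all genes passed at ZT10 and ZT22. At ZT14 a discordant library lay in each genotype, and Hep-Bmal1WT had more males than females. The discordant Hep-Bmal1KO library had a member mean of 0.57, against -0.01 to 0.10 in its group mates. The discordant Hep-Bmal1WT library had the lowest member mean of its group, 0.05. Isg15 averaged 47.2 ± 13.1 CPM (SD, n = 4) at ZT10 and 21.3 ± 6.86 CPM at ZT22 in Hep-Bmal1WT cdHFD, against 27.5 ± 6.22 and 13.3 ± 5.54 CPM in Hep-Bmal1KO cdHFD. At ZT10 the member means of Hep-Bmal1WT males were 0.83 and 0.59, against 0.03 and -0.02 in Hep-Bmal1KO males. Females overlapped, with 0.15 (a discordant library) and 0.30 in Hep-Bmal1WT and 0.20 and 0.28 in Hep-Bmal1KO.

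The daily profile of each gene was described by a 24 h cosine, tested by edgeR with 2 degrees of freedom. Amplitude is the distance from the daily mean to the peak on the variance-stabilized scale. In Hep-Bmal1WT NC 10 of 40 genes passed (19.1% of all genes), in Hep-Bmal1KO NC 4 (4.34%), in Hep-Bmal1WT cdHFD 9 (14.6%) and in Hep-Bmal1KO cdHFD 6 (3.83%). Over the groups 19 genes passed at least once, 10 passed in 2 groups and none in more. Median amplitudes of the 40 genes were 0.23, 0.22, 0.18 and 0.20 in the same order, against 0.19, 0.15, 0.15 and 0.13 over all genes.

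In Hep-Bmal1WT NC the largest amplitudes among genes that passed were those of Oasl1 (0.60 ± 0.13, peak at ZT21.5 ± 0.83 h), Gbp7 (0.58 ± 0.18, ZT7.46) and Rsad2 (0.45 ± 0.16, ZT0.566). Oasl1 averaged 3.59 ± 1.06 CPM at ZT10 and 12.6 ± 5.88 CPM at ZT22. Its peak to trough ratio from the cosine fit on the variance-stabilized scale was 2.31, which is not the ratio of these CPM means. By the F test of the cosine fit that gave the amplitudes, adjusted p was 0.0101 for Oasl1, 0.0769 for Gbp7 and 0.114 for Rsad2. Peaks late in the night were those of Oasl1, Ifi27, Bst2 and Parp9 between ZT19.96 and ZT21.5, and daytime peaks those of Iigp1, Gbp7, Ifih1, Oas2 and Irf7 between ZT6.88 and ZT10.2.

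In Hep-Bmal1KO NC the genes that passed were Oasl1 (0.60 ± 0.12, ZT20.9), Usp18 (0.35 ± 0.08, ZT22.4), Parp9 (0.30 ± 0.07, ZT21.8) and Iigp1 (0.28 ± 0.06, ZT4.78). Adjusted p by the F test of the cosine fit was 0.0282, 0.0461, 0.0520 and 0.0490 in the same order. Oasl1, Parp9 and Iigp1 also passed in Hep-Bmal1WT NC. The Oasl1 amplitude was 0.60 ± 0.13 in Hep-Bmal1WT and 0.60 ± 0.12 in Hep-Bmal1KO, with peaks at ZT21.5 ± 0.83 h and ZT20.9 ± 0.77 h.

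On cdHFD Ly6e (0.42 ± 0.10, ZT20.03), Isg15 (0.39 ± 0.13, ZT8.65) and Ifi27 (0.38 ± 0.09, ZT19.7) led in Hep-Bmal1WT, and Ifit1 (0.53 ± 0.13, ZT6.86), Rsad2 (0.48 ± 0.11, ZT1.84) and Zbp1 (0.39 ± 0.09, ZT8.00) in Hep-Bmal1KO, among the genes that passed. Ifit1 averaged 19.95 ± 4.39 CPM at ZT6 and 8.09 ± 2.35 CPM at ZT22 in Hep-Bmal1KO cdHFD. By the F test of the cosine fit, adjusted p was 0.0282 for Ly6e, 0.0965 for Isg15 and 0.0257 for Ifi27 in Hep-Bmal1WT cdHFD. In Hep-Bmal1KO cdHFD it was 0.0684 for Ifit1, 0.039 for Rsad2 and 0.0415 for Zbp1. Tap1 passed in Hep-Bmal1WT cdHFD with a peak at ZT2.09. Irf1, Ifit3, Gbp2, Igtp, Oas1a and 16 others passed in no group.

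These rhythm calls rested on few mice per time. On NC each replicate number was of the same sex in every group, and on cdHFD in most groups. Leaving 1 out therefore also shifted the sex ratio. Leaving out 1 replicate of every group gave 3 to 7 genes in Hep-Bmal1WT NC, 0 to 1 in Hep-Bmal1KO NC, 1 to 6 in Hep-Bmal1WT cdHFD and 0 to 3 in Hep-Bmal1KO cdHFD.

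A difference of profile between genotypes was tested directly. The interaction of genotype with the cosine passed for 0 of 40 genes on each diet by edgeR and by DESeq2, with 1 gene on each diet at an unadjusted p under 0.05, against 0.392% of all genes on NC and 0.424% on cdHFD. The amplitude difference likewise passed for 0 genes on each diet, against 0.0193% of all genes. At an unadjusted p under 0.05 Ifi27 had a lower amplitude in Hep-Bmal1KO on NC (difference -0.21 ± 0.11), where 3.84% of all genes were lower. On cdHFD Irf7 (0.27 ± 0.12) and Rsad2 (0.30 ± 0.15) had a higher one, where 0.315% of all genes were higher and 2.61% lower. Irf7 went from an amplitude of 0.10 in Hep-Bmal1WT cdHFD to 0.37 in Hep-Bmal1KO cdHFD, and Rsad2 from 0.19 to 0.48.

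**Figure D5:**
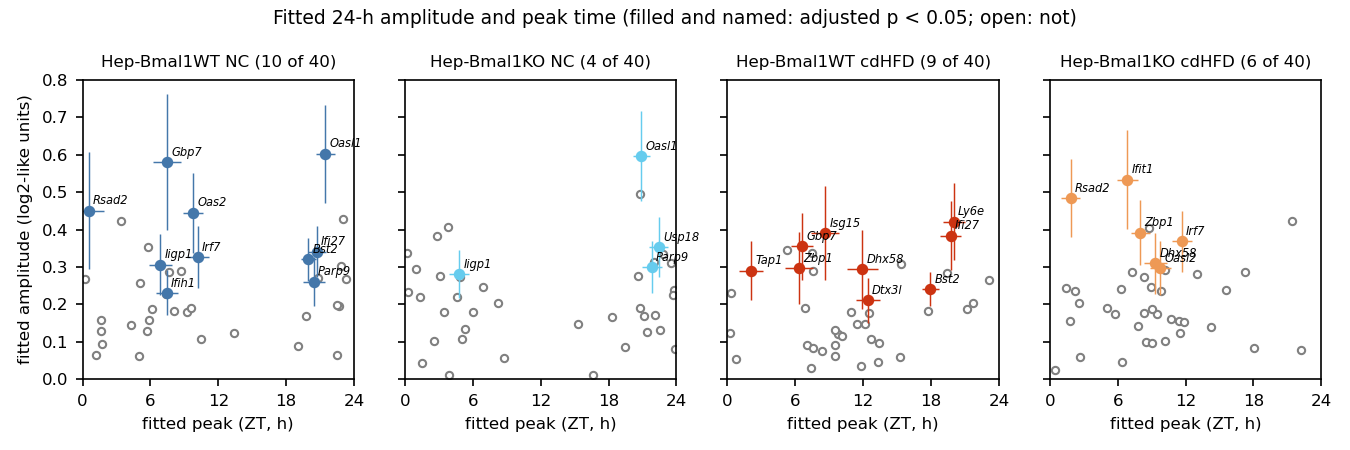
Fitted amplitude (vertical axis, variance-stabilized units) against peak time (horizontal axis, zeitgeber hours) of the 40 genes in the 4 groups, with filled, named points where adjusted p is under 0.05 and bars for SE. Oasl1 has the largest amplitude in both NC groups, 0.60 with peaks at ZT21.5 and ZT20.9.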

How the data were processed

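Livers of 96 mice were profiled by BRB-seq, 1 library per mouse. The authors aligned reads to mm10 and deposited raw counts per gene. The submitters' processing notes name STAR, HTSeq, featureCounts and DESeq2 without a version used here, and collapse of molecular identifiers is not given in the sources used here. Entries that name no gene were left out: reads without a feature were 5.65% to 11.3% and unaligned reads 14.8% to 34.0% per library. Totals of 1861740 to 9718615 counts limit precision for the lowest genes.

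Genes with at least 100 counts over all libraries (15548) were tested with edgeR 4.0.16 in R 4.3.3, by quasi-likelihood F tests after TMM scaling and Benjamini-Hochberg adjustment over all of them. SE is the absolute log2 difference divided by the square root of F. Amplitudes and peaks came from a 24 h cosinor on variance-stabilized counts (DESeq2 1.42.0), with delta-method SE. The scripts were tested on simulated data. The members and gene lists were chosen with earlier results of these data known. Named in each comparison are up to 10 members of smallest p per direction past the threshold (the 3 of smallest p where fewer pass), the 3 of largest amplitude per group, a fixed set of 12 members, and up to 6 pathway or further interferon-responsive genes. Other members and single markers were named after their values were seen. The comparisons of sex within and between diets and of genotype by sex, and the fits without discordant libraries, were added after values had been seen. Alternatives were DESeq2, other scaling, filters, covariates, each sex alone, and each replicate or time left out. Each of 12 runs of mouse numbers held 1 diet and time, and each of 12 plate columns 1 genotype and diet, so these cannot be told apart from the groups. Some results of the pathway list are not reported here.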

Additional observations from a re-analysis of the deposited data

Results flagged for a closer look

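In Hep-Bmal1KO cdHFD livers at ZT6, replicate 4, a female, had a member mean of 0.357, and the nearest of the other 3 mice had 0.219. The gap was 0.898 of the range of the 4 mice, above Dixon's 95% critical value for 4 values. It was the only such case in 24 groups, and chance gives about 1 in 20.

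The genotype difference itself differed between diets, by edgeR's interaction test, for 8 genes, beside 3.04% of all genes (2% negative). Of these 8 genes, 1 passed in every alternative run. The log2 interactions were -0.84 for Ly6e, -0.66 for Usp18, -0.64 for Isg15, -0.52 for Irf7, -0.48 for Bst2, -0.46 for Ddx58, -0.42 for Parp9 and -0.34 for Dtx3l.

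The sex difference differed between diets for 11 genes, beside 7.91% of all genes (4.23% negative). This comparison was added after values had been seen. The log2 interactions were -1.26 for Gbp3, -0.93 for Ifi44, -0.92 for Igtp, -0.80 for Ifit1, -0.77 for Gbp7, -0.70 for Isg15, -0.64 for Zbp1, -0.54 for Rtp4, -0.50 for Irf1, -0.50 for Xaf1 and -0.27 for Trim25. Of 12 macrophage markers, 10 passed the same test in the same direction, and their part in these values was not tested.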

How the results depend on the processing

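For differences in level, up to 10 passing genes per direction were compared by sign, and none changed sign in any alternative run. Counts, rhythm results, amplitude differences and calls at single times were not compared by sign. Leaving out 1 replicate number of every group gave 28 to 30 genes for diet in each genotype (7 to 11 of them lower in Hep-Bmal1KO), 8 to 16 (18 with all) for genotype on cdHFD, 3 to 6 (4) for genotype on NC, 3 to 8 (8) for genotype by diet, 7 to 18 (18) for sex (20 without the Hep-Bmal1WT cdHFD ZT10 replicate 1 library, a fit added after seeing the data), 15 to 18 (22) for sex on NC, 0 to 2 (3) for sex on cdHFD and 7 to 10 (11) for sex by diet. Calls at single times ranged from 3 to 6 (7) on NC and 0 to 2 (0) on cdHFD. Rhythm calls ranged from 3 to 7 (10) in Hep-Bmal1WT NC, 0 to 1 (4) in Hep-Bmal1KO NC, 1 to 6 (9) in Hep-Bmal1WT cdHFD and 0 to 3 (6) in Hep-Bmal1KO cdHFD. Without the discordant libraries there were 30 genes for genotype on cdHFD, 16 for genotype by diet, 6 for sex on cdHFD, 1 for genotype by sex on NC, and 13 and 8 calls at single times on NC and cdHFD. Genotype on cdHFD gave 9 without ZT22, 27 without ZT14 and 8 in either sex alone. Genotype on NC gave 8 in males and 1 in females, and genotype by diet 1 in females. Shares of all genes in the single-sex fits are not given here. Rhythm calls in females and males alone were 5 and 3 (Hep-Bmal1WT NC), 1 and 0 (Hep-Bmal1KO NC), 0 and 1 (Hep-Bmal1WT cdHFD) and 3 and 1 (Hep-Bmal1KO cdHFD). In Hep-Bmal1KO NC there were 7 with a sex covariate and 11 with ZT as a factor. At single times on cdHFD, DESeq2, a sex covariate and the strict filter gave 2 each and no filter 1. Without a filter, sex by diet gave 17 and genotype by sex on NC 1. Fewer samples enter the fits by replicate, sex and time, and the fits by replicate also shift the sex ratio. Otherwise the cause was not tested. No paired analysis was possible because the labels carry no replicate numbers shared between groups.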

Other observations

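Other interferon-responsive genes outside the 40 were tested as a list of 36. On cdHFD 21 were higher and 3 lower in Hep-Bmal1WT, and 15 higher and 7 lower in Hep-Bmal1KO. Over all genes 28.7% were higher and 27% lower in Hep-Bmal1WT, and 32.4% and 29.6% in Hep-Bmal1KO. Cxcl10, a chemokine that attracts T cells, had medians of 8.25 and 38.6 CPM in Hep-Bmal1WT on NC and cdHFD, a log2 difference of 2.305 ± 0.14 (adjusted p = 1.68e-20). Slfn2 rose by 2.19 in Hep-Bmal1WT and 2.39 in Hep-Bmal1KO.

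Genotype passed for 7 of 36 on NC, 4 higher and 3 lower in Hep-Bmal1KO, beside 12.6% of all genes. Lower were H2-K1, Psmb10 and Nlrc5, at -0.22, -0.24 and -0.60, and Cmpk2, the neighbour of Rsad2 in the genome, was higher by 0.81 ± 0.16 (adjusted p = 0.000269). On cdHFD 6 of 36 passed, all lower in Hep-Bmal1KO, beside 4.99% of all genes lower. They included the class I antigen presentation genes H2-K1, H2-D1 and B2m, at -0.45 ± 0.06, -0.25 and -0.20. The H2-K1 median was 1470 CPM in Hep-Bmal1WT cdHFD and 1069 CPM in Hep-Bmal1KO cdHFD. On NC 15 of 36 were higher in females and none lower, beside 9.98% and 8.64% of all genes.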
